A study of Mus musculus with 8 samples.

Results

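A set of 10 genes that mark injured or regenerating kidney tubules was followed in the kidneys of db/db and normal mice, namely Havcr1, Clu, Spp1, Krt8, Krt18, Krt20, Sox9, Vcam1, Cd44 and Anxa1. They were chosen by name, and every array probe annotated to 1 of these 10 genes was taken, which gave 19 probes of 56605, or 10 of the 36868 gene names on the array. The tests took in the 33638 probes that, in 1 group or more, had both arrays well above background. Among them were 14 of the 19 probes, for 9 of the 10 genes. Havcr1 did not enter, and its levels are given as measured.

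RNA of whole kidney was labelled with the dye Cy3 and hybridised to 8 Agilent mouse arrays with 60-base probes. All mice were male and 20 weeks old, with 2 samples in each of 4 groups. Normal mice, called m/m, were of the strain C57BLKS/J Iar -m+/m+. The mice of the other 3 groups were of the strain C57BLKS/J Iar -+Leprdb/+Leprdb, homozygous for a mutant leptin receptor allele and called db/db, which makes mice obese and diabetic. Untreated db/db mice received nothing that the labels name. The control miRNA group was db/db mice given a control miRNA in PEI nanoparticles, and the mimic group was db/db mice given a miR-181b-5p mimic in such nanoparticles. A mimic is a synthetic RNA that stands in for the mature miRNA. The sources used here do not give dose, route or schedule. The design asks what a miR-181b-5p mimic changes in the db/db kidney.

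A tubule cell that survives damage flattens, loses part of its transporter programme and switches on genes that a resting proximal tubule keeps low. Some of their products are shed or secreted, such as the phosphatidylserine receptor KIM-1 encoded by Havcr1, the chaperone clusterin and the matrix protein osteopontin. Others are keratin filaments, the progenitor factor SOX9, adhesion molecules of cells that fail to recover, and the anti-inflammatory annexin A1.

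Sequences that bear on the measurements are given first. The mimic copies mature miR-181b-5p, whose seed, bases 2 to 8, is in capitals. RefSeq (GRCm38.p6) places the mature sequence at chr1:137966650-137966673 and chr2:38853845-38853868, both on the + strand. The 5p miRNAs miR-181a, miR-181c and miR-181d share this seed.
mmu-miR-181b-5p: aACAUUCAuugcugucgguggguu
The next 2 sequences are the Havcr1 probe, which carries the only Havcr1 values, and the Sox9 probe with the higher mean of the 2 Sox9 probes. They lie at chr11:46592056-46592115 and chr11:112646642-112646701 on mm9, the build of the array annotation. Exons and UTRs on that build were not analysed here. The Havcr1 probe can be read in an open frame up to the final TGA, in capitals.
Havcr1 A_66_P122767: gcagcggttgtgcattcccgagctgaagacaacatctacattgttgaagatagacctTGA
Sox9 A_55_P2745144: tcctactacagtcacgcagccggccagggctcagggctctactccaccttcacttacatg
A match to the miR-181 seed was found in 0 of the 19 probes. The last sequences are the 250 bases before the start of Krt20 and of the first RefSeq start of Spp1, the pair of tested genes with the widest range over the arrays. They lie at chr11:99438154-99438403 on the - strand and chr5:104434861-104435110 on the + strand of GRCm38.p6. Capitals mark matches, on either strand, to GGAATG (TEAD factors) in Krt20, and to ACCACA (RUNX factors) and ACAAAG (SOX factors) in Spp1.
Krt20 promoter: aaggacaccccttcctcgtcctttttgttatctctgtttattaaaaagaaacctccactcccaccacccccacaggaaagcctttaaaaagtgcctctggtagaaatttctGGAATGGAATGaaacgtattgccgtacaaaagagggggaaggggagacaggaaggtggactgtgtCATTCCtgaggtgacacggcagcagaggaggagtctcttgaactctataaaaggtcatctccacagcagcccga
Spp1 promoter: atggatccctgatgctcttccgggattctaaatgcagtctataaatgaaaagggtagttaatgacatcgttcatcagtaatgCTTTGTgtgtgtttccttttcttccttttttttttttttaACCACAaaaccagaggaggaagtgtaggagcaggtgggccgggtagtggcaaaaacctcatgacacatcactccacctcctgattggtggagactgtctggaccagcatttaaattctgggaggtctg

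RefSeq held a promoter for 7 of the 10 genes, 10 promoters in all, and the genes without an entry were Clu, Sox9 and Vcam1. The TEAD motif stood in the promoters of 2 of the 7, Krt20 with 3 matches, of which a pair overlaps by 1 base, and Anxa1, against 12.6% of 32851 promoters of this length. ACCACA stood in 1 of the 10 promoters, that of Spp1, against 14% of all. ACAAAG stood in 3 promoters of Krt18 and Spp1, against 16.5% of all. No match was found for TGANTCA (AP-1, 6.75% of all), TTCNNNGAA (STAT, 7.02%) or the NF-kB motif (1.41%). These matches describe the letters only.

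Levels are log2 intensities relative to the 75th percentile of the same array, so 0 is that percentile and a difference of 1 is 2-fold. Well above background were 56.5% to 62.5% of an array's spots, 0 spots were saturated, and markers of proximal tubule, thick ascending limb, collecting duct and podocytes were all tested (5 of 5 in each list). Replicates correlated at r = 0.991 (normal), 0.996 (untreated), 0.995 (control miRNA) and 0.976 (mimic). Mimic replicate 1 stood apart: on the first principal component (43.2% of the variance) it lay at 92.8, against 21.5 for mimic replicate 2. More probes lay over 2-fold apart between the mimic replicates (3463) than between those of normal (1022), untreated (277) or control miRNA kidney (508). The median differences of the set in the mimic comparisons are therefore also given without it, as are some other results. All 8 arrays sat on 1 slide, the normal and untreated mice in row 1 and the mice given nanoparticles in row 2, so row and nanoparticles cannot be told apart. The labels number the mice and say no more, so p-values measure only the spread between these samples.

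Clu and Spp1, the secreted products, were higher in all 6 db/db kidneys than in both normal ones, in each of the 3 db/db groups. This held for 2 of the 9 tested genes, and for 14.7% of all probes. Clu, the extracellular chaperone clusterin, was the only gene of the set to pass a test, at 3.02-fold in mimic over normal kidney. Its levels were 6.36 and 6.03 in normal, 6.92 and 6.95 in untreated, 7.01 and 6.65 in control miRNA and 8.28 and 7.30 in mimic kidney. Both mimic arrays lay above the other 6, and the untreated and control miRNA groups overlapped each other. Some markers of podocytes and endothelium also rose in db/db against normal kidney. Of 5 podocyte markers 3 passed in untreated, 3 in control miRNA and 5 in mimic kidney (limma). In these comparisons 3.84%, 1.51% and 7.37% of all probes passed. The summed level of the podocyte markers was at most 17.9 in normal arrays and 28.4 to 40.9 in db/db arrays. Of 7 endothelial markers 3, 3 and 2 passed, among them Tek and Ehd3 in each group. Their part in the Clu and Spp1 levels was not tested.

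The mimic mean of Clu was 7.79 ± 0.69 and the normal mean 6.20 ± 0.24 (SD, n = 2 each), a difference of 1.59 (SE 0.33, 95% confidence interval 0.81 to 2.38, limma, Benjamini-Hochberg adjusted p = 0.0415). This 1 gene of 9 stands against 7.37% of all probes called in that comparison. The call was lost, at adjusted p = 0.0772 to 0.15 in limma, when any of the 6 arrays outside the mimic group was left out. Without mimic replicate 1 the difference was 1.10 (adjusted p = 0.0433 in limma). Against normal kidney, Clu differed by 0.74 in untreated db/db mice (limma, adjusted p = 0.214) and by 0.64 after control miRNA (adjusted p = 0.310). In bulk kidney, more cells of a type and more RNA per cell cannot be told apart. The other Clu probe was not well above background on any array.

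Spp1 encodes osteopontin, a secreted ligand of integrins and of CD44. Its levels were 6.49 and 5.95 in normal, 7.89 and 7.48 in untreated, 7.65 and 7.51 in control miRNA and 9.78 and 7.72 in mimic kidney. Mimic replicate 1 was 3.73-fold above the next highest array, while mimic replicate 2 lay within the range of the untreated group. Differences from normal were 1.47 untreated (adjusted p = 0.201), 1.36 after control miRNA (adjusted p = 0.263) and 2.54 after the mimic (adjusted p = 0.0608, limma with Benjamini-Hochberg adjustment). The largest of these, 5.80-fold, missed the threshold of 0.05.

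Without mimic replicate 1, the standard error of the untreated Spp1 difference was 0.23 in place of 0.62, and Spp1 passed against normal kidney in all 3 db/db groups. The differences were 1.47 untreated (limma, adjusted p = 0.0176), 1.36 after control miRNA (adjusted p = 0.0264) and 1.50 after the mimic (adjusted p = 0.0375). Clu then also passed in untreated kidney, at 0.74 (limma, adjusted p = 0.0470), but not after control miRNA, at 0.64 (adjusted p = 0.0770). On those 7 arrays 14.5%, 10.1% and 7% of all probes were called in the untreated, control miRNA and mimic comparison with normal. The mimic difference from normal was smaller without that array for both genes, from 1.59 to 1.10 for Clu and from 2.54 to 1.50 for Spp1.

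**Figure D1:**
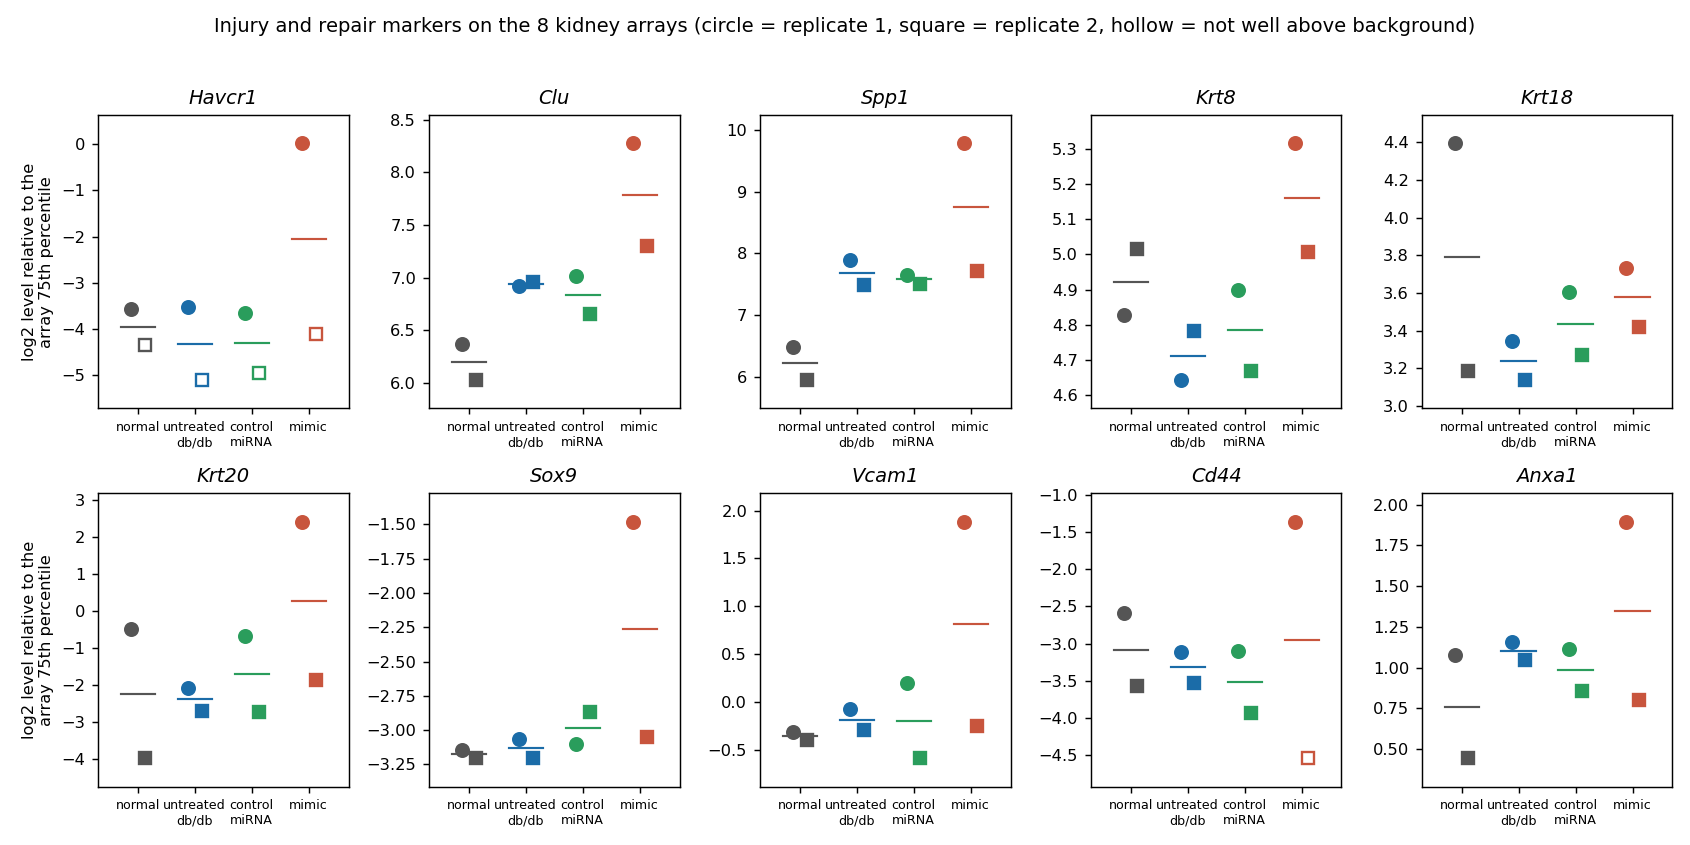
Log2 level of each gene's main probe relative to the array's 75th percentile (y axis, its own scale per gene) on the 8 arrays by group; circles are replicate 1, squares replicate 2, lines group means, hollow symbols arrays where the probe was not well above background. Mimic replicate 1 is the highest point for 9 genes, all but Krt18, and Clu and Spp1 are higher in all db/db arrays than in normal ones.

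Havcr1 encodes KIM-1, a receptor with which injured proximal tubule cells engulf dying neighbours. The probe was well above background on replicate 1 of each group and on no replicate 2. Levels were -3.56 and -4.34 in normal, -3.53 and -5.10 in untreated, -3.64 and -4.94 in control miRNA and 0.02 and -4.10 in mimic kidney. A single array was high: mimic replicate 1 was 11.7-fold above the next highest and at least 17.4-fold above mimic replicate 2. The 3 other detected values lay between -3.64 and -3.53, where the lowest level counted as well above background was -4.77 to -4.33 by array. When all probes were fitted regardless of background, the difference of mimic from control miRNA was 2.25 (95% confidence interval -1.04 to 5.54, limma, adjusted p = 0.755).

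Krt8 and Krt18 encode the partner keratins of simple epithelia, which build the filament network of tubule and duct cells. Krt8 levels were 4.83 and 5.02 in normal, 4.64 and 4.78 in untreated, 4.90 and 4.67 in control miRNA and 5.32 and 5.01 in mimic kidney. Their whole range was 0.67, the narrowest of the 10 genes, and the mimic arrays lay above all untreated and control miRNA arrays. The differences of 0.45 from untreated (adjusted p = 0.310) and 0.38 from control miRNA (adjusted p = 0.546) did not pass in limma. Krt18 levels were 4.39 and 3.19 in normal, 3.35 and 3.14 in untreated, 3.60 and 3.27 in control miRNA and 3.73 and 3.42 in mimic kidney. Here normal replicate 1 was the high array, 2.31-fold above normal replicate 2, and the 7 other arrays spanned 3.14 to 3.73.

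Krt20, a keratin of differentiated urothelium and gut that also appears in injured tubules, ranged most widely, over 6.40 log2 units. Its levels were -0.48 and -3.97 in normal, -2.07 and -2.68 in untreated, -0.67 and -2.70 in control miRNA and 2.43 and -1.86 in mimic kidney. Replicate 1 was 11.2-fold above replicate 2 in normal, 4.11-fold in control miRNA and 19.6-fold in mimic kidney, and 1.53-fold in untreated kidney. Mimic replicate 1 was 7.51-fold above the next highest array, normal replicate 1. With replicates this far apart, the difference of mimic from normal was 2.51 with a confidence interval of -1.52 to 6.54 (limma, adjusted p = 0.352).

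Markers of urothelium, the lining of the renal pelvis, moved with Krt18 and Krt20 in some of the same arrays. All 11 urothelial markers were on the array and 10 were tested. Their summed level was 44.3 in normal replicate 1 and 30.3 in control miRNA replicate 1, against 20.8 to 25.3 in the other 6 arrays. The median gap of the list between replicates 1 and 2 was 1.85 in normal, 0.09 in untreated, 1.92 in control miRNA and 1.03 in mimic kidney. In mimic replicate 1, where Krt20 was highest, the summed level was 24.6, and 1 of the 10 markers was highest and 1 lowest on that array. Fat cell markers (7 of 7 tested) had a summed level of 76.5 in normal replicate 1, 4.72 in normal replicate 2, 4.65 in control miRNA replicate 1 and 0.73 to 1.51 elsewhere. The part of either cell type in the keratin levels was not tested.

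Sox9 encodes a transcription factor that proliferating tubule cells switch on after damage. On the main probe, printed above, levels were -3.14 and -3.21 in normal, -3.07 and -3.20 in untreated, -3.10 and -2.87 in control miRNA and -1.48 and -3.05 in mimic kidney. Mimic replicate 1 was 2.62-fold above the next highest array, and the 7 others lay within 0.34 of each other. The other Sox9 probe, at chr11:112647560-112647619 on mm9, put the same array 27.7-fold above the next highest and at least 44.6-fold above mimic replicate 2. Both probes thus single out 1 array, with very different sizes, and on both the difference of mimic from normal missed the threshold (0.91, adjusted p = 0.239, and 2.35, adjusted p = 0.357, limma).

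Vcam1 encodes an adhesion molecule for leukocyte integrins that also marks tubule cells which do not complete repair. Its levels were -0.32 and -0.40 in normal, -0.08 and -0.30 in untreated, 0.19 and -0.59 in control miRNA and 1.88 and -0.25 in mimic kidney. Mimic replicate 1 was 3.23-fold above the next highest array on this probe and 2.55-fold on the other Vcam1 probe. The 7 other arrays spanned less than 2-fold on the main probe, and mimic minus normal was 1.18 (limma, adjusted p = 0.276).

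Cd44 encodes the hyaluronan receptor, which also binds osteopontin. Its levels were -2.59 and -3.58 in normal, -3.11 and -3.53 in untreated, -3.10 and -3.93 in control miRNA and -1.36 and -4.54 in mimic kidney. On this main probe the mimic arrays were the highest and the lowest of the 8. Replicate 2 was not well above background and replicate 1 was at least 7.83-fold above it. The group means hid this spread: mimic minus normal was 0.13 (confidence interval -2.23 to 2.50, limma, adjusted p = 0.940). A further Cd44 probe was well above background on all 8 arrays. It put mimic replicate 1 at 1.49-fold above the next highest array and 2.85-fold above mimic replicate 2. The lowest array there was control miRNA replicate 2 (-4.28), with mimic replicate 2 at -3.72. On this probe untreated (-0.65, adjusted p = 0.463) and control miRNA kidney (-0.87, adjusted p = 0.369, limma) lay below normal without overlap. The third Cd44 probe was not well above background on any array.

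Anxa1 encodes annexin A1, a calcium-dependent phospholipid-binding protein that acts on formyl peptide receptors. Its levels were 1.07 and 0.44 in normal, 1.15 and 1.05 in untreated, 1.11 and 0.86 in control miRNA and 1.90 and 0.80 in mimic kidney. Mimic replicate 1 was 1.67-fold above the next highest array, and normal replicate 2 was the lowest. Another Anxa1 probe gave 1.57-fold for the same array, and 2 further probes were not well above background on any array. Mimic minus normal was 0.59 (limma, adjusted p = 0.337).

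Across the set, mimic replicate 1 was the highest of the 8 arrays for 8 of the 9 tested genes, against 21% of all probes. It lay at least 2-fold above each of the 7 others for 5 of 9 (Spp1, Krt20, Sox9, Vcam1 and Cd44), against 1.94% of all probes. It exceeded mimic replicate 2 at least 2-fold for 6 of 9, against 4.69%. The median gap of replicate 1 over replicate 2 was 1.57 in the mimic group, where all probes had -0.06.

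A smaller gap of the same sign appeared in the other groups. Replicate 1 was above replicate 2 for 8 of 9 genes in normal (47.4% of all probes), 7 in untreated (46.4%), 8 in control miRNA (49.3%) and 9 in mimic kidney (43.8%). The median over the 9 genes was 0.54 in normal, 0.21 in untreated and 0.33 in control miRNA kidney, while all probes had -0.02, -0.01 and -0.00. Replicate 1 was above replicate 2 in all 4 groups for 6 of the 9 (Spp1, Krt18, Krt20, Vcam1, Cd44 and Anxa1), against 6.62% of all probes. Gaps of at least 2-fold in that direction occurred in 2 of 9 in normal kidney (Krt18 and Krt20, 2.62% of all probes), 0 in untreated (0.496%) and 1 in control miRNA kidney (Krt20, 0.901%). The replicate numbers are names in the labels, which state no tie between mice. On the slide, replicate 1 lay in column 1 or 3 and replicate 2 in column 2 or 4. Replicate number and slide column therefore cannot be told apart.

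**Figure D2:**
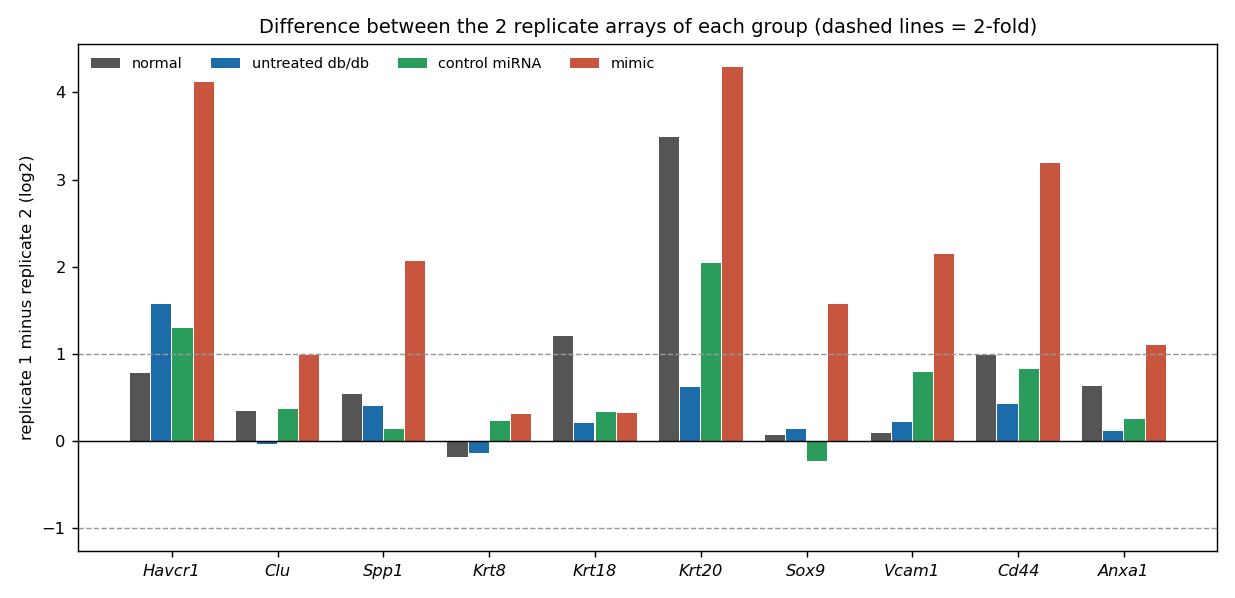
Log2 level of replicate 1 minus replicate 2 (y axis) for each gene's main probe, with a bar per group; dashed lines mark 2-fold. The mimic bars exceed 2-fold for Havcr1, Spp1, Krt20, Sox9, Vcam1, Cd44 and Anxa1, and the normal bar for Krt20 corresponds to 11.2-fold; for Havcr1 replicate 2 was not well above background.

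In untreated db/db against normal kidney, 0 of the 9 genes passed in limma, where 3.84% of all probes passed, and 0 had an unadjusted p under 0.05, where 25.8% of all probes did. Groups did not overlap for 3 higher genes (Clu, Spp1 and Vcam1, against 30.1% of all probes) and 1 lower gene (Krt8, against 33.5%). On the other Krt8 probe the groups overlapped, and on the other Vcam1 probe untreated kidney was lower without overlap (-0.39). With the array median as scale the Krt8 difference turned from -0.21 to 0.02, and with the mean of its probes that of Vcam1 turned from 0.17 to -0.11. The median difference was 0.04, beside -0.02 over all probes. After control miRNA, 0 of 9 passed in limma (1.51% of all probes), and 0 had an unadjusted p under 0.05 (21.9% of all probes). Clu, Spp1 and Sox9 were higher without overlap (27.4% of all probes), and 0 genes lower (32%), with a median of 0.19 beside -0.03. The Sox9 difference of 0.19 turned to -0.04 with normexp background correction and to -0.03 with the mean of its probes.

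In the mimic group against normal kidney, Clu passed. Clu, Spp1, Sox9 and Vcam1 were higher without overlap (4 of 9, against 23% of all probes), while 0 were lower (30.4%). On the other Sox9 probe and the other Vcam1 probe these groups overlapped. The median difference was 0.91 beside -0.06 over all probes, and 0.11 without mimic replicate 1. These 3 comparisons share the normal arrays. The F test over the 4 groups called 0 of the 9 genes in limma, where 2.44% of all probes passed. At an unadjusted p under 0.05 it had 2 of the 9 (Clu and Spp1), beside 8040 of 33638 probes.

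**Figure D3:**
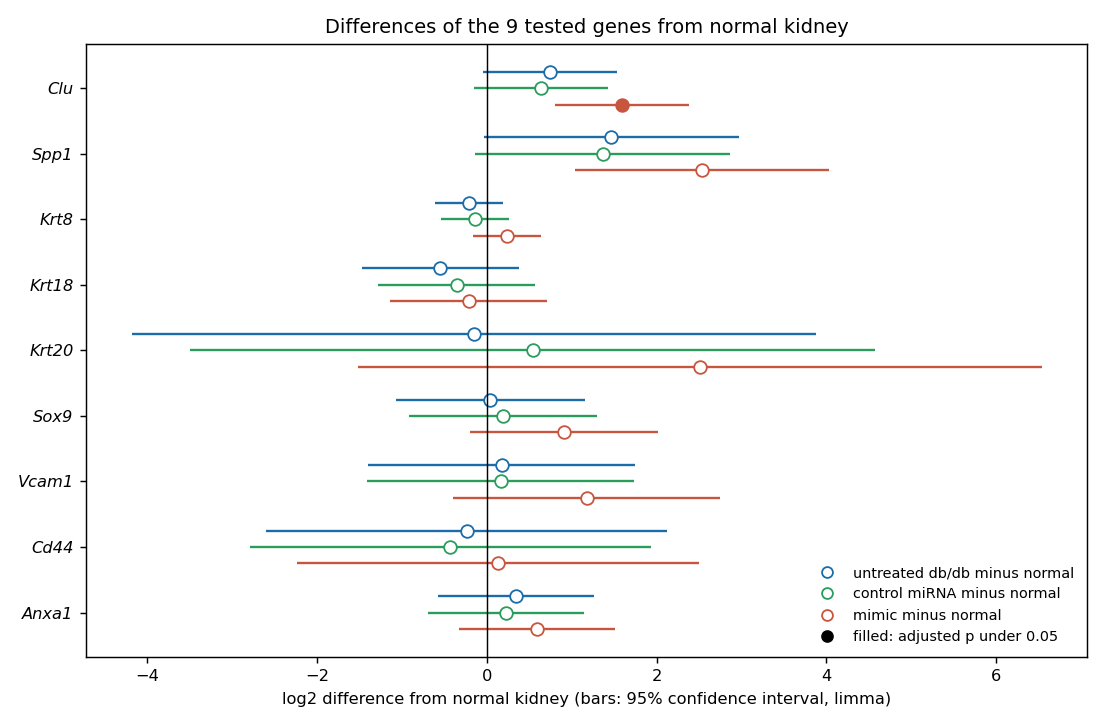
Log2 difference from normal kidney (x axis) of the 9 tested genes with 95% confidence intervals from limma, for the untreated, control miRNA and mimic groups of db/db mice (n = 2 arrays each). The filled point, Clu in mimic minus normal (1.59), is the single difference with an adjusted p under 0.05, and intervals for Krt20 and Cd44 are the widest.

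The comparison of mimic with control miRNA addresses the miRNA itself, since both groups received nanoparticles. All 9 tested genes had a higher mean after the mimic, with a median of 0.72 beside -0.03 over all probes. In limma 0 of 9 passed, as did 0% of all probes, and 1 had an unadjusted p under 0.05 (Clu, 0.95, adjusted p = 0.465), beside 9.44% of all probes. Clu, Spp1 and Krt8 were higher without overlap (18.8% of all probes) and 0 lower (20.7%).

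Without mimic replicate 1 the higher mean was left for 3 of 9 genes and the median was -0.06, with 0 of 9 passing and 0% of all probes called in limma. Clu was then 0.46 higher and Spp1 0.14 higher, and Krt20 differed by -0.18, Sox9 by -0.07, Vcam1 by -0.06 and Cd44 by -1.03. The Cd44 value rests on mimic replicate 2, where its main probe was not well above background. On the Cd44 probe well above background on all 8 arrays, mimic replicate 2 (-3.72) lay above the control miRNA mean (-3.97). With mimic replicate 1 as the only mimic array, 5 of 9 passed (Clu, Spp1, Sox9, Vcam1 and Cd44) along with 12% of all probes. That fit assumes that a lone array varies like those of the other groups.

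Against untreated kidney, the mimic group gave 0 of 9 passing in limma (0% of all probes), with 2 at an unadjusted p under 0.05 (Clu and Krt8, beside 14.3% of all probes). Clu, Krt8, Krt18, Krt20 and Sox9 were higher without overlap (21.7% of all probes) and 0 lower (25.7%). On the other Sox9 probe these groups overlapped. All 9 tested genes had a higher mean in the mimic group, with a median difference of 0.85. Without mimic replicate 1 the median was 0.08, and 6 of 9 genes were higher. Control miRNA against untreated kidney gave 0 of 9 passing (0% of all probes), 0 at an unadjusted p under 0.05 (3.71% of all probes), and no gene without overlap (18.2% higher and 22.2% lower among all probes). The median difference there was -0.01. Confidence intervals remained wide, for Spp1 from -1.60 to 1.40, so equal levels are not shown.

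Other secreted injury products and receptors were also led by mimic replicate 1. Of 18 such genes, all tested, 16 were highest on that array, against 21% of all probes. At least 2-fold above each of the 7 others lay 12, against 1.94%. Another 2 were lowest there (30.3% of all probes), 1 of them at least 2-fold below each of the 7 others (2.24%). Fgb, the fibrinogen beta chain, was 132-fold above the next highest array there, Lcn2, the siderophore-binding NGAL, 43.4-fold, and Cxcl1, a neutrophil chemokine, 15.5-fold. Their summed level was 1184 in mimic replicate 1 and 72.6 to 127 in the other 7 arrays, among which mimic replicate 2 had 83.5. In mimic minus control miRNA 0 of the 18 passed in limma, with a smallest adjusted p of 0.510 for Plau.

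Against normal kidney, the matrix protein gene Ccn2 rose by 1.28 in untreated db/db mice (limma, adjusted p = 0.0492) and by 1.14 after the mimic (adjusted p = 0.0474). The urokinase gene Plau fell by 2.12 after the mimic (limma, adjusted p = 0.0452). These were 1 of 18 genes higher in the untreated group, and 1 higher and 1 lower in the mimic group, where 3.84% and 7.37% of all probes were called. Without mimic replicate 1, 3 were higher and 2 lower in untreated kidney (14.5% of all probes called). In mimic kidney C3, Il34 and Plau then passed, 1 higher and 2 lower (7% of all probes called), and Ccn2 no longer did.

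Among 16 genes of dedifferentiation and failed repair, mimic replicate 1 was highest for 8, against 21% of all probes, and lowest for 4, against 30.3%. It was at least 2-fold above all others for 3, against 1.94%: Cdkn1a, the cell cycle inhibitor p21 (5.79-fold), Sox4 (2.66-fold) and Klf6 (2.12-fold). After the mimic the stress factor Atf3 rose by 2.13 against normal kidney (limma, adjusted p = 0.0320), where 1 of the 2 normal arrays was well above background. The integrin gene Itgb6 fell by 1.34 (limma, adjusted p = 0.0168) and Sema5a by 0.60 (adjusted p = 0.0495). These 3 of 16 stand beside 7.37% of all probes called, and without mimic replicate 1, 0 were higher and 2 lower (Itgb6 and Dcdc2a, beside 7%). Among 11 annexins and S100 proteins, Anxa6 rose by 0.89 after the mimic (limma, adjusted p = 0.0200) and passed alone without mimic replicate 1 too, and S100a10 was 2.80-fold above the next highest array in mimic replicate 1.

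Receptors and ligands of the set had 10 of 15 genes tested. Itgb7, an integrin chain whose heterodimer with the alpha 4 chain binds VCAM-1, rose by 3.08 in mimic over normal kidney (limma, adjusted p = 0.00693). It was the 1 gene called of the 10, beside 7.37% of all probes. Its levels were 3.57 and 3.69 in normal, 4.81 and 4.75 in untreated, 4.69 and 4.50 in control miRNA and 7.23 and 6.20 in mimic kidney. Both mimic arrays lay above the other 6, but a second Itgb7 probe differed by -0.45. Fpr2, a formyl peptide receptor for annexin A1, was 4.89-fold above the next highest array in mimic replicate 1. The hyaluronan synthases Has1, Has2 and Has3 and the receptor Fpr3 were not well above background on any array.

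Genes of the differentiated proximal tubule went the other way in the same array. Of 20 genes, 15 were lowest in mimic replicate 1, against 30.3% of all probes, and 4 lay at least 2-fold below each of the 7 others, against 2.24%. Their summed level was 2878 there and 4001 to 4952 in the other 7 arrays. Markers of other segments were low there too: the collecting duct list summed to 44.6 against 77.8 to 108 elsewhere (4 of 5 lowest), and the thick ascending limb list to 372 against 433 to 567 (2 of 5 at least 2-fold below all others). Against normal kidney, where 7.37% of all probes were called in either direction, the mimic group had 3 of 20 lower: the amino acid transporter gene Slc7a13 (-4.38, limma, adjusted p = 0.0103), the urate transporter gene Slc22a12 (-1.72, adjusted p = 0.00785) and the gamma-glutamyltransferase gene Ggt1 (-1.0, adjusted p = 0.0163). The gluconeogenic Pck1 rose by 2.32 (limma, adjusted p = 0.00839). Slc7a13, Slc22a12, Ggt1 and Pck1 passed without mimic replicate 1 as well. In untreated kidney 2 of 20 fell, beside 3.84% of all probes called: Ggt1 (-1.16, limma, adjusted p = 0.0210) and Slc22a12 (-1.23, adjusted p = 0.0299). After control miRNA 1 of 20 passed, Ggt1 (-1.09, limma, adjusted p = 0.0317), beside 1.51% of all probes.

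Neutrophil and macrophage markers stood high in mimic replicate 1, where 21% of all probes were highest. Of 6 neutrophil markers, 5 were highest there, S100a8 at 44.8-fold and S100a9 at 32.3-fold above the next highest array, while Csf3r was not. Their summed level was 93.6 against 39.1 to 57.2 in the other arrays. Macrophage markers summed to 80.7 in mimic replicate 1 and 26.7 in mimic replicate 2, with 68.4 and 71.3 in normal and 33.0 to 41.2 in untreated and control miRNA kidney; 10 of 14 were highest in mimic replicate 1, and Itgam, at 1.52, was lowest there. The 4 red cell markers tested summed to 259 and 9.25 in the mimic replicates, 11.2 and 17.4 in normal and 85.6 to 196 in the other db/db arrays. Summed levels spanned 4.69 to 8.42 for T and NK cells and 0.68 to 1.48 for B and plasma cells, both lowest in mimic replicate 1. On that array 3 of 9 T and NK markers and 2 of 5 B and plasma markers were lowest, beside 30.3% of all probes. The B and plasma sum was 0.679 there and 0.687 in control miRNA replicate 2. Summed levels spanned 25.4 to 36.8 for endothelium and 19.8 to 37.8 for fibroblasts and mesangium. Cd8a and Cd79a were not well above background on any array. The part of these cells in the levels of Spp1, Vcam1, Cd44, Anxa1 and the other injury genes was not tested.

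**Figure D4:**
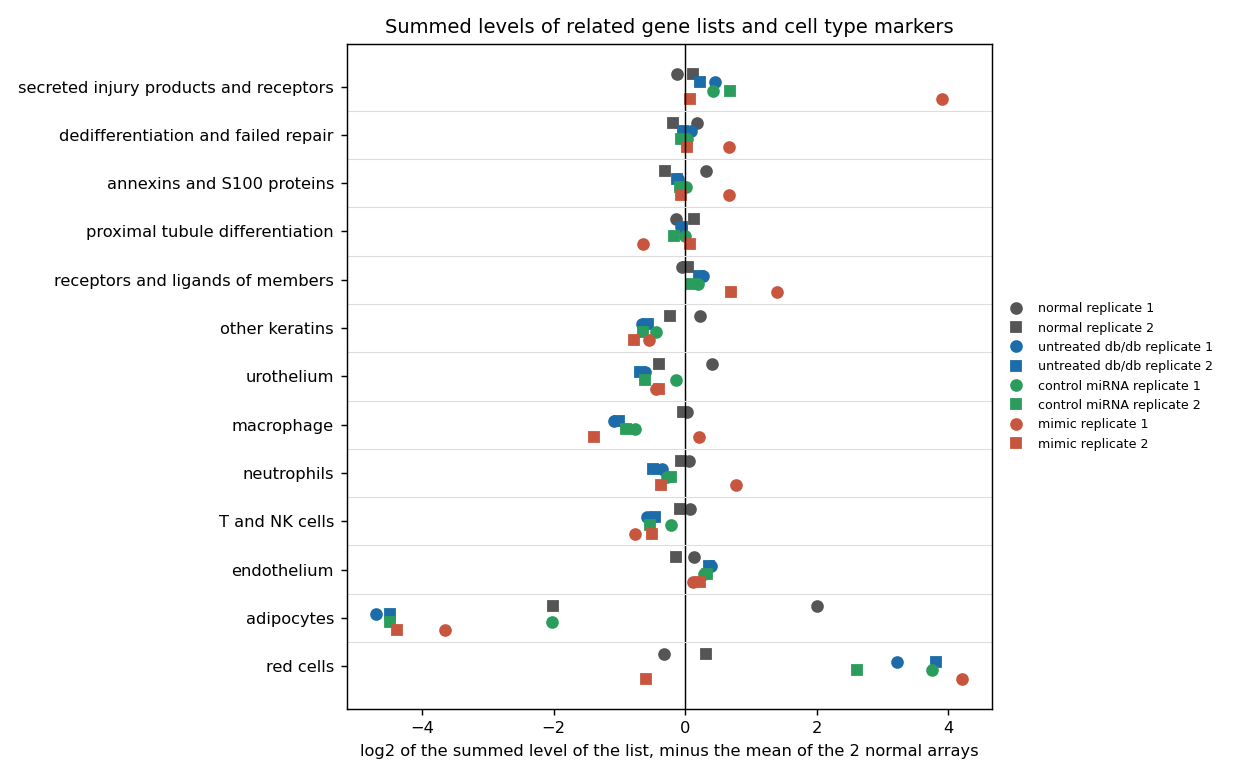
Log2 of the summed level of each list, less the mean of the 2 normal arrays (x axis), for lists of related genes and of cell type markers; each of the 8 symbols per list is an array. Mimic replicate 1 stands far right for secreted injury products and receptors (1184 against at most 127) and left for proximal tubule differentiation. Normal replicate 1 is right for urothelium and adipocytes.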

How the data were processed

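Whole-kidney RNA of 8 mice was read on 8 one-colour Agilent arrays. Per the file headers, the deposited scanner files hold the intensity of each spot after background subtraction and detrending, read with Agilent Feature Extraction 12.0.3.1 per the submitters' processing notes. The deposited series table holds the authors' ratio of each probe's rescaled intensity to its median over the arrays, a scale found from the values: over 56745 probes it correlated with rescaled scanner values at r of 1.00 per array, its column medians were 0.971 to 1.08, and it was used as an alternative. Spots of a probe were averaged, 4 probes with outlier flags dropped, and each array divided by its 75th percentile before log2 was taken. Names followed the RefSeq table of GRCm38.p6: 33766 probes matched by accession, 9864 by symbol and 310 by synonym, and 12661 kept the array's name. A gene is given by its probe with the highest mean level, with the others beside it. With limma 3.58.1 (R 4.3.3) the 4 group means were estimated from all 8 arrays, at 4 residual plus 2.33 prior degrees of freedom. P-values were adjusted over 33638 probes by the Benjamini-Hochberg method at 0.05. For 2 arrays against 2 the smallest exact permutation p is 0.333. The number of arrays limits the precision. A bound ("at least") raises a dim array to its own value or the array's lowest level well above background, whichever is higher. All 10 genes of the set are named, from each related list those past the threshold (at most 4), and for the 3 genes of widest range the 5 most alike. Other genes were named after their values were seen, as were the fits of the lists without mimic replicate 1. The genes and lists were chosen with earlier results of these data known. Alternatives changed the scale, background correction, filter, values, arrays, weights, probe rule, replicate block and single arrays left out.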

Additional observations from a re-analysis of the deposited data

How the results depend on the processing

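The call of Clu in mimic over normal kidney depended on the processing. In that comparison 0 of the 9 genes passed with quantile normalization, with no filter on dim probes, with only the compared arrays in the fit or with array weights, and 2 (Clu and Spp1) with the array median as scale or with normexp. With the replicate number as a block, 2 passed as well (Clu and Spp1, adjusted p of Spp1 0.0486 in limma). Same-numbered samples correlated at -0.03 to 0.16 in their deviations over all probes. Such values cannot decide whether the numbers pair the samples, and the labels give no pairing. In untreated over normal kidney 1 gene (Spp1) passed with only the compared arrays. The cause was not tested. Leaving out 1 array in turn gave 0 to 2 calls in untreated over normal, 0 to 1 in control miRNA over normal, 0 to 5 in mimic over normal, 0 to 5 in mimic over control miRNA, 0 to 4 in mimic over untreated kidney and 0 to 4 in the F test. Of 588 other values of single genes 570 kept direction and call, and 10 turned sign. With the array median as scale these were Krt8 (0.017 untreated and 0.082 control miRNA over normal), Krt18 (0.10 mimic over normal) and Krt20 (0.075 untreated over normal). For Sox9 they were -0.11 untreated and -0.041 control miRNA over normal with normexp, and -0.13 and -0.032 with the mean of all probes. For Vcam1 they were -0.11 and -0.18 with the mean of all probes. That median scale moved the median difference of all probes from normal to 0.20 untreated, 0.19 control miRNA and 0.25 mimic.

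Leaving out 1 array turned 33 of 432 differences. For Cd44 the ranges were -0.73 to 0.26 in untreated over normal, -0.93 to 0.061 in control miRNA over normal, -1.46 to 1.72 in mimic over normal, -0.61 to 0.22 in control miRNA over untreated, -1.03 to 2.16 in mimic over control miRNA and -1.22 to 1.96 in mimic over untreated kidney. For Krt20 they were -1.90 to 1.59 in untreated and -1.21 to 2.28 in control miRNA over normal, -0.33 to 1.71 in control miRNA over untreated and -0.18 to 4.12 in mimic over control miRNA. For Krt18 they were -1.15 to 0.055 in untreated, -0.96 to 0.25 in control miRNA and -0.82 to 0.39 in mimic over normal, and -0.027 to 0.30 in mimic over control miRNA. For Vcam1 they were -0.23 to 0.56 in control miRNA over normal, -0.40 to 0.38 in control miRNA over untreated, -0.056 to 2.08 in mimic over control miRNA and -0.067 to 2.07 in mimic over untreated. For Anxa1, in that order, they were -0.089 to 0.54, -0.24 to 0.013, -0.19 to 0.91 and -0.30 to 0.80. For Sox9 they were -0.026 to 0.11 in untreated over normal and -0.066 to 1.51 in mimic over control miRNA. In control miRNA over untreated they were -0.28 to 0.077 for Clu, -0.31 to 0.10 for Spp1 and -0.044 to 0.19 for Krt8.

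Over all alternatives the calls among all probes ran from 33 to 4869 in untreated (1292 as reported), 28 to 3394 in control miRNA (508) and 38 to 8374 in mimic over normal kidney (2478), and 9 to 7572 in the F test (820). Mimic over control miRNA and over untreated kidney gave 0 except without mimic replicate 2 (4036 and 5697). Of the calls, 480 were higher and 812 lower in untreated, 193 and 315 in control miRNA and 922 and 1556 in mimic over normal. With the median scale these were 1144 and 371, 452 and 185, and 3637 and 860. With quantile normalization they were 737 and 731, 325 and 346, and 1112 and 1099. Signal over background limits Havcr1, well above it on 4 of 8 arrays, the dimmer Sox9 probe (6 of 8) and the main Cd44 probe (7 of 8).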

Other observations

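Other keratins, all genes named Krt with a number apart from Krt8, Krt18 and Krt20, included few that passed. Of 48 on the array 26 were tested, and 19 were not well above background on any array. Against normal kidney 0 rose and 1 fell in untreated kidney in limma, beside 3.84% of all probes called. After control miRNA 0 rose and 1 fell (1.51% of all probes called), and after the mimic 0 rose and 3 fell (7.37%). After the mimic Krt222 fell by 2.78 (adjusted p = 0.0147, levels 3.65 and 3.41 in normal, 2.24 and 2.47 in untreated, 2.57 and 2.40 in control miRNA and 0.12 and 1.38 in mimic kidney). Krt26 was at least 1.42-fold and Krt72 at least 1.62-fold lower, both not well above background on the mimic arrays (limma, adjusted p = 0.0137 and 0.0352). The median difference of the 26 in mimic over normal kidney was -0.58 beside -0.06 over all probes. Without mimic replicate 1 it was -0.43 beside -0.02.

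Genes whose pattern over the 8 arrays was nearest to a member were sought among 21817 genes, by the root mean square difference of log2 levels after each was centred on its own mean. For Krt20 these were H2-DMa (0.80), H2-DMb1, Ifi47, H2-Ab1 and Btnl2, and for Havcr1 Ifi47 (0.48), Gbp7, Irf1, LOC100038947 and Il18bp, where 4 of the 8 Havcr1 values were not well above background. For Spp1 they were Tfr2 (0.28), Gm3219, Gldc, Xdh and Adm. These genes were chosen for their likeness, so their shared peak in mimic replicate 1 follows from the choice.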
